A study of Mus musculus with 10 samples.

Results

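The genes described here are 7 regulators of the hormone-sensing and milk-secreting luminal epithelium of the mammary gland: Esr1, Pgr, Foxa1, Gata3, Elf5, Stat5a and Stat5b. They were taken by symbol from 18193 genes with a probe set of a single gene symbol, and 14 probe sets read them. RNA of 5 mouse mammary tumour lines, grown as cultures, was hybridized to 10 arrays, 2 per line. E, an epithelial line, came from a mammary adenocarcinoma that arose spontaneously in a female FVB/N-TgN(MMTVneu)202Mul mouse, which carries the neu oncogene under the mouse mammary tumour virus promoter. The 4 mesenchymal lines, M1 to M4, came from tumours that relapsed after E cells were injected into female FVB/N mice, so all 5 lines go back to 1 tumour. The labels name no treatment. Cells of every line were taken at 80% confluence from RPMI medium holding 10% serum. The sources used here do not say if a line's 2 arrays were separate cultures, so p-values measure only the spread between those arrays, which may be technical, except those from the fit to 5 line means, which rest on the spread among the M lines. No test covers variation among epithelial lines.

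Esr1 and Pgr encode the receptors for oestrogen and progesterone. Foxa1 and Gata3 encode a forkhead and a zinc-finger factor that open and hold the chromatin of hormone-responsive luminal cells. Elf5 encodes an ETS factor of the secretory, alveolar lineage, and Stat5a and Stat5b are the paralogous factors that the kinase Jak2 activates when prolactin or growth hormone binds its receptor; together they drive milk protein genes. In a normal gland the hormone-sensing cells and the secretory cells are different luminal cells.

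Across probe sets the correlation was 0.992 to 0.993 within a line and 0.873 to 0.976 between lines. The overall scale of the arrays differed, with trimmed means of 299 down to 181, and the median gene was lower by 0.21 on the log2 scale in the mean of the M lines than in E. Against the markers of the labelled cell types, all 10 epithelial markers tested and all 5 luminal markers tested were called lower in the mean of the M lines, and 8 of 9 mesenchymal markers were called higher. Over all genes 14.5% were called lower and 7.34% higher. Krt8, in both of the first lists, was called in M1 alone, with line means of 7959 in E, 57.05 (M1), 7947 (M2), 5529 (M3) and 4538 (M4). Krt19, also in both, and the luminal marker Muc1 did not pass the filter on low values. They reached at most 13.7 and 7.5 on any array, E included. Epcam, Cldn7, Ocln, Esrp1, Kit and Prom1 passed through the E arrays alone. S100a4, Snai2, Prrx1, Cdh2, Zeb1, Zeb2 and Twist1 passed through M arrays alone. A difference between the groups was thus built into the passing of these genes. The mesenchymal exception was Vim, with a mean of 9644 in E and 7488 to 16510 in M1 to M4 (0.31, not called), so E also had a high vimentin signal. Other cell types could be present in a culture grown from a tumour. The summed signal of 6 stromal fibroblast markers was 80.4 to 144 on the E arrays and 8487 to 20660 on the M arrays, and that of 6 leukocyte markers was 94.4 to 95.7 and 231.5 to 513. Of the leukocyte list the integrin gene Itgb2 rose (2.46), from a mean of 2.5 in E to 340 (M1), 274 (M2), 78.1 (M3) and 73.2 (M4). Cd68 read 58.1 and 55.8 in E and 80.3 to 144.6 on the M arrays (0.66, not called). The other 4 stayed under 32 on every array, among them Ptprc, which defines leukocytes, at 17.6 or less. The endothelial cadherin Cdh5 reached at most 52.2, with means of 6.75 in E and 50.35 in M2, where it was called higher (1.09). Plvap, another endothelial marker, read 62.4 and 63 in E and was called lower in M1 (-1.18) and M4 (-1.24). With the M lines averaged, 0 of the 4 endothelial markers tested differed from E by the rule for a call.

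Elf5, Gata3, Foxa1 and Stat5a fell from E to the M lines, Esr1 rose, and Stat5b and Pgr were not called. Here called means a limma p, adjusted by Benjamini-Hochberg over 14840 genes, under 0.05 together with a change in log2(signal + 32) of at least 2-fold. By that rule the mean contrast (the 4 M lines averaged, minus E) called 5 of the 7, against 21.8% of all genes; 4 were lower, against 14.5%, and 1 was higher, against 7.34%. The median change of the 7 was -1.27, beside -0.21 for all genes tested. In the single lines 5 were called in M1, M2 and M3 and 6 in M4, against 21.1%, 20.4%, 27.5% and 26.8% of all genes. Elf5, Gata3, Foxa1 and Stat5a were lower and Esr1 higher in each of the 4 lines, where 9.02% of all genes were lower in all 4 lines and 4.23% higher. All 7 passed the filter on low values, but not in the same way. Elf5 and Foxa1 passed through the E arrays alone and Esr1 and Pgr through M arrays alone, so a difference between the groups was built into their passing.

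**Figure D1:**
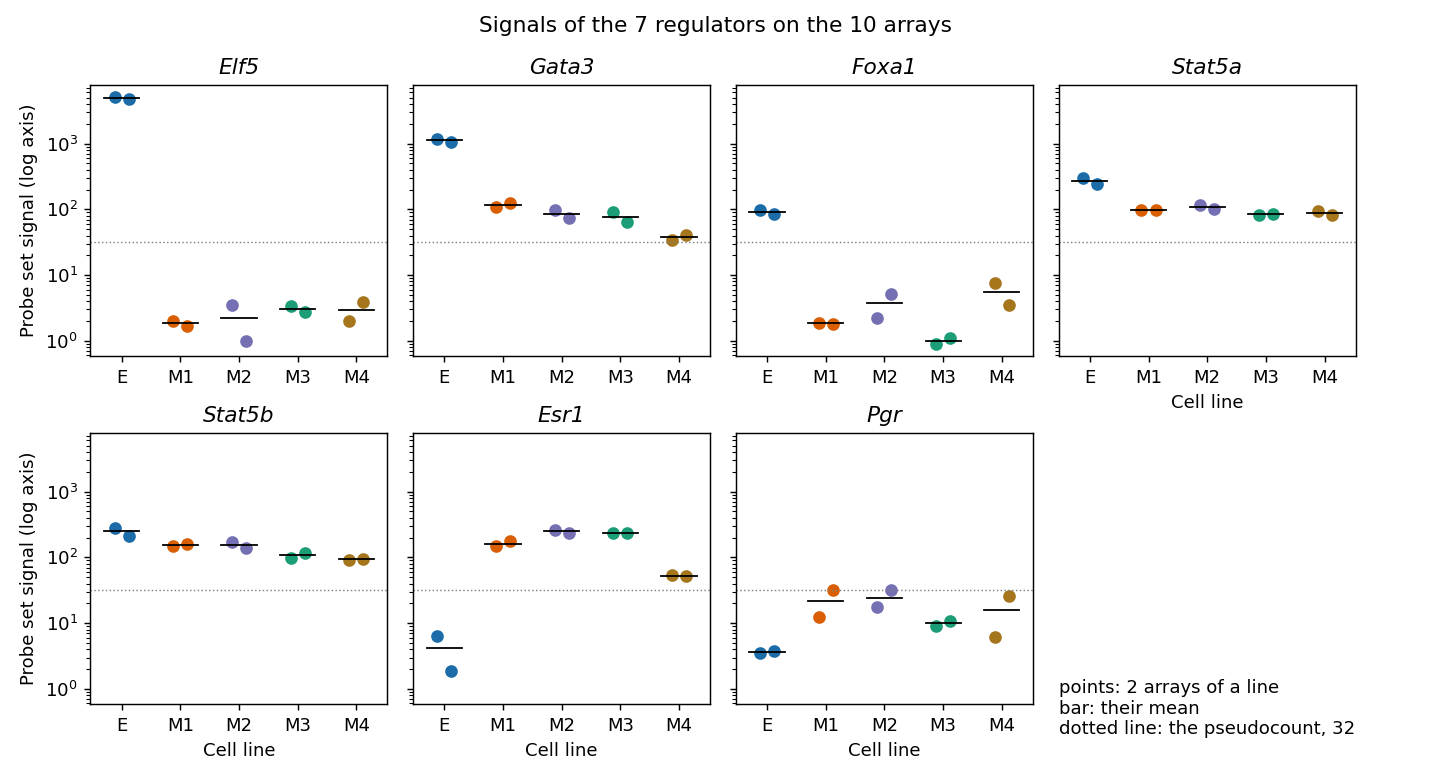
Probe set signal (log axis) of each regulator on the 10 arrays, by line, for the probe set that represents the gene; points are arrays, bars the mean of 2 arrays, and the dotted line marks the pseudocount of 32. Elf5, Gata3, Foxa1, Stat5a and Stat5b lie higher on both E arrays than on any of the 8 M arrays, and Esr1 and Pgr lie lower.

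Elf5 changed most. Its signals were 5061 and 4838 on the E arrays and 1.0 to 3.9 on the 8 M arrays, with a median of 2.35. The groups were far apart, and all M arrays lay near the bottom of the signal range, where lines cannot be ranked. The log2 change in the mean contrast was -7.17 ± 0.14 (SE; adjusted p = 4.53e-40), and in the single lines it lay between -7.20 in M1 and -7.15 in M3. Among the M lines the range was 0.05, with an adjusted p of 0.995 in the F test. Since the M signals were far below the pseudocount, the size of the change follows from E and from the pseudocount, and it was -8.89 with a pseudocount of 8 and -6.24 with 64. The second Elf5 probe set read 297 and 253 in E and 2.9 to 16.1 on the M arrays, a change of -2.80 ± 0.15 (adjusted p = 2.5e-16 with each probe set tested on its own). It moved the same way by a smaller amount.

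Gata3 fell in all 4 M lines. Its signals were 1158 and 1072 in E, 110 and 123 (M1), 96.8 and 73.9 (M2), 89.6 and 63.7 (M3) and 34.0 and 41.2 (M4). All M arrays were below E, and both M4 arrays were below every other array. The change was -3.43 ± 0.14 in the mean contrast (adjusted p = 4.85e-27), -2.95 (M1), -3.30 (M2), -3.41 (M3) and -4.04 (M4). Unlike Elf5 and Foxa1, Gata3 kept a signal above the 40th percentile of its array on all 8 M arrays.

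Foxa1 fell as well. Its signals were 98.4 and 85.4 in E and 0.9 to 7.6 on the M arrays, with a median of 2.05. The groups did not overlap. The change was -1.82 ± 0.16 (adjusted p = 8.91e-14) and lay between -1.91 in M3 and -1.72 in M4. This size was set largely by the pseudocount: it was -3.20 with a pseudocount of 8, and with values below 64 set to 64 it was -0.52 and no longer called.

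The promoters of Elf5 and Foxa1 are shown because both genes were at the bottom of the signal range in all 4 M lines, and that of Gata3 because it kept some signal. Each is RefSeq's window on GRCm38.p6 from 250 bases before an annotated start to 50 after it, 5′ to 3′ on the gene's strand. Capitals mark CACCTG on either strand (CAGGTG on the strand shown), the form of the E-box to which repressors of the Snail and Zeb families are known to bind.
Elf5, upstream start, chr2:103411848-103412147, plus strand: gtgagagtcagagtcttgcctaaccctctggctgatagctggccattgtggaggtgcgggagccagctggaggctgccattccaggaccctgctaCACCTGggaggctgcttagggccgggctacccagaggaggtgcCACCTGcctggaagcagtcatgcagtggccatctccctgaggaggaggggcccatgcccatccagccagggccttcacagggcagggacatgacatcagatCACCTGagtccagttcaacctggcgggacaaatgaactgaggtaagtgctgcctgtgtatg
Elf5, downstream start, chr2:103423818-103424117, plus strand: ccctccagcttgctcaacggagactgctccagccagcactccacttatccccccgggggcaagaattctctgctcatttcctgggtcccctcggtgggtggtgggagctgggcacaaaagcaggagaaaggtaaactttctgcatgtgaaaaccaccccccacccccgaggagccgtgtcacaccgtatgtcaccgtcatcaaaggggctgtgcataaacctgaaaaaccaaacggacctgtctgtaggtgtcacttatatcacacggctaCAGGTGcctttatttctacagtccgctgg
Foxa1, chr12:57546062-57546361, minus strand: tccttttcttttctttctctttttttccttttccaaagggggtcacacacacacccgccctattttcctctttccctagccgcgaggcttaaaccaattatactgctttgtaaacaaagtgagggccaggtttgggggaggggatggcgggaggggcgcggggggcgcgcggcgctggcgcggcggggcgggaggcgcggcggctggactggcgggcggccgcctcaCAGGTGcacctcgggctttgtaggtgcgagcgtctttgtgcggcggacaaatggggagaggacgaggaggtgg
Gata3, chr2:9878551-9878850, minus strand: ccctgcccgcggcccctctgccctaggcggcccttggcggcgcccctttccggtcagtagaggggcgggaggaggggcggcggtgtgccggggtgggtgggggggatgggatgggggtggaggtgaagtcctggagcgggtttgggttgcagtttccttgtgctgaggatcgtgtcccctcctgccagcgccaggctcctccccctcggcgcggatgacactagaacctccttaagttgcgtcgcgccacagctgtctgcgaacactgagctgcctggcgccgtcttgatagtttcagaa
The upstream Elf5 window holds 3 matches, at -155, -112 and -11 from its start, the downstream window holds 1 at 22, and the Foxa1 window holds 1 at -23. The Gata3 window holds 0. Among all 32851 promoter windows of that length in the table, 20.2% hold at least 1 match and 0.365% hold 3 or more. The level of 3 is the count in the upstream Elf5 window, so the second share was not set independently of it. Of the 11 windows of the 7 genes, 5 hold a match, the others being 1 of Pgr and 1 of Stat5a. Both Esr1 windows hold 0. Another pattern, TTCNNNGAA, the palindrome to which STAT dimers are known to bind, is in 1 of the 11 windows, that of the downstream Esr1 start, and in 8.3% of all windows. The forkhead pattern TGTTTAC is in the Foxa1 window, and in 3.65% of all windows. These are matches of letters and were not measured as binding sites.

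**Figure D2:**
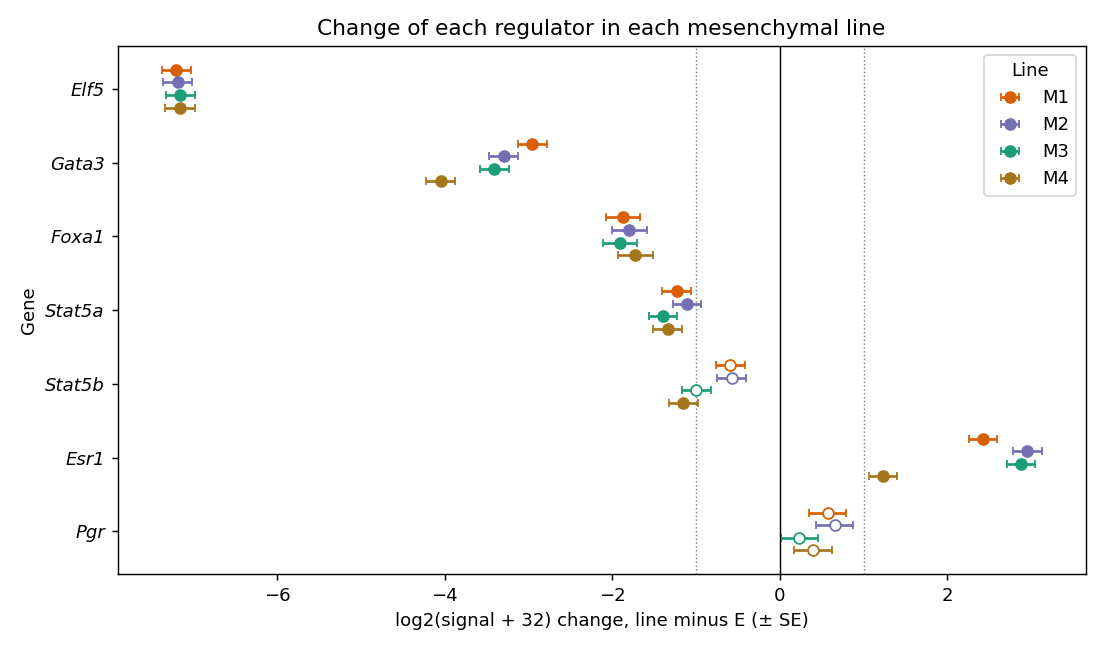
Change in log2(signal + 32) of each regulator in each M line minus E, with its standard error; filled points were called and open points were not, and dotted lines mark 2-fold. Gata3 in M4 is at -4.04 and Esr1 in M4 at 1.23; the M signals of Elf5 and Foxa1 lie far under the pseudocount, which fixes near-equal changes in the 4 lines.

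Stat5a and Stat5b were lower in the M lines by a few-fold at most. Stat5a signals were 302 and 246 in E and 81.7 to 117.9 on the M arrays, with a median of 95.65. No M array reached E, and the 4 lines were close together, with a range of 0.29 and an adjusted p of 0.439 in the F test. Stat5a fell by 1.27 ± 0.14 in the mean contrast (adjusted p = 1.52e-11). Of the other scalings, median centring kept the call (-1.09) and the other two ended it: the change became -0.87 when arrays were quantile normalized and -0.99 when they were scaled by their hybridization controls, short of 2-fold in both. In the single lines quantile normalization ended every Stat5a call, at -0.94 (M1), -0.86 (M2), -0.90 (M3) and -0.76 (M4). Hybridization control scaling ended those of M2 (-0.87) and M4 (-0.89). M2, the line nearest to the limit, was at -1.11. The M2 call was also lost with median centring (-0.99), a pseudocount of 64 (-0.96), the mean of probe sets (-0.98) and without E replicate 1 (-0.98). The other Stat5a probe set changed by -0.97 ± 0.13 (adjusted p = 2.66e-07 with each probe set tested on its own), also short of 2-fold.

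Stat5b signals were 284 and 212 in E, 148 and 157 (M1), 173 and 138 (M2), 97.8 and 117 (M3) and 90.7 and 95.7 (M4). All M arrays were below both E arrays, with M3 and M4 below M1 and M2. The difference in the mean contrast was -0.83 ± 0.14 (adjusted p = 8.55e-07), which misses the fold limit. In the fit to 5 line means its adjusted p was 0.217, so it missed the p limit there too. M4 was called (-1.15), and M3 (-0.996), M1 (-0.59) and M2 (-0.57) were not. The M4 call was lost after quantile normalization (-0.58), with hybridization control scaling (-0.71), with median centring (-0.92), with a pseudocount of 64 (-0.98), with the mean of probe sets (-0.89) and without E replicate 1 (-0.96). Without E replicate 2 the mean difference was -1.02 and was called, and M3 was called without E replicate 2 (-1.19) or M3 replicate 2 (-1.10), with a pseudocount of 8 (-1.14) and with values below 64 set to 64 (-1.20). By the F test the M lines differed in Stat5b (adjusted p = 0.00475), with a range of 0.58, which is under 2-fold. The second Stat5b probe set differed by -0.47 ± 0.14 in the mean contrast (adjusted p = 0.00432).

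The paralogs lie side by side on chromosome 11, with Stat5b at 100780731 to 100859004 and Stat5a at 100859351 to 100885169 in RefSeq's GRCm38.p6 table, 346 bases apart, and Stat3 follows 1636 bases beyond Stat5a. Their promoters share sequence, which is shown because both genes were lower in every M line, though Stat5b was called in M4 alone. The 50-base stretches below, from RefSeq on GRCm38.p6, were the best match without gaps between the Stat5a and Stat5b windows and are identical at 45 positions (90%). Each lies in the window of its gene's downstream start. No other pair of genes was compared, so the match has no background share beside it. Capitals mark the longest identical run, of 16 bases.
Stat5a, chr11:100860418-100860467, plus strand: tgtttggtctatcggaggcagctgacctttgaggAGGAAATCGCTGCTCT
Stat5b, chr11:100822578-100822627, minus strand: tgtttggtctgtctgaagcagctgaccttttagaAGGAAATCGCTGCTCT
All 4 probe sets of the pair have the suffix _a_at, which on this array type is given to probe sets that read several transcripts of 1 gene. How far those of each gene also read the other's transcript was not tested.

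Esr1 moved the other way. The probe set that represents it read 6.4 and 1.9 in E, 146.5 and 177.8 (M1), 262.1 and 233.1 (M2), 231.6 and 234.6 (M3) and 54.1 and 51.2 (M4). Every M array was above both E arrays, and M4 was well below the other M lines. The rise was 2.37 ± 0.14 in the mean contrast (adjusted p = 7.74e-21). It was 2.42 (M1), 2.95 (M2), 2.88 (M3) and 1.23 (M4). Since the E signals were far under the pseudocount, the size of the mean change follows from the pseudocount too, and it was 3.73 with 8 and 1.71 with 64. M4 was not called with a pseudocount of 64 (0.78), and with values below 64 set to 64 its change was 0. In the fit to 5 line means the adjusted p of the mean contrast was 0.0695, so Esr1 was not called there.

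The 3 Esr1 probe sets did not move alike. The second read 11.7 and 7.1 in E and 9.5 to 58.7 on the M arrays, with line means of 27.1 (M1), 51.2 (M2), 53.4 (M3) and 11.95 (M4). M2 and M3 were again the highest lines and M4 the lowest M line, with a change of 0.66 ± 0.15 in the mean contrast, which was not called, and calls in M2 (1.00) and M3 (1.05) when each probe set was tested on its own. The third stayed between 10.6 and 24.7 on all 10 arrays, with a change of -0.05 ± 0.16. With the mean of the 3 probe sets Esr1 changed by 0.99 and was not called. By the array's annotation the first and the second were designed from the same sequence record and the third from another. The rise of Esr1 therefore rests on 1 probe set, with 1 other that placed M1 and M4 below M2 and M3 at lower signal.

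**Figure D3:**
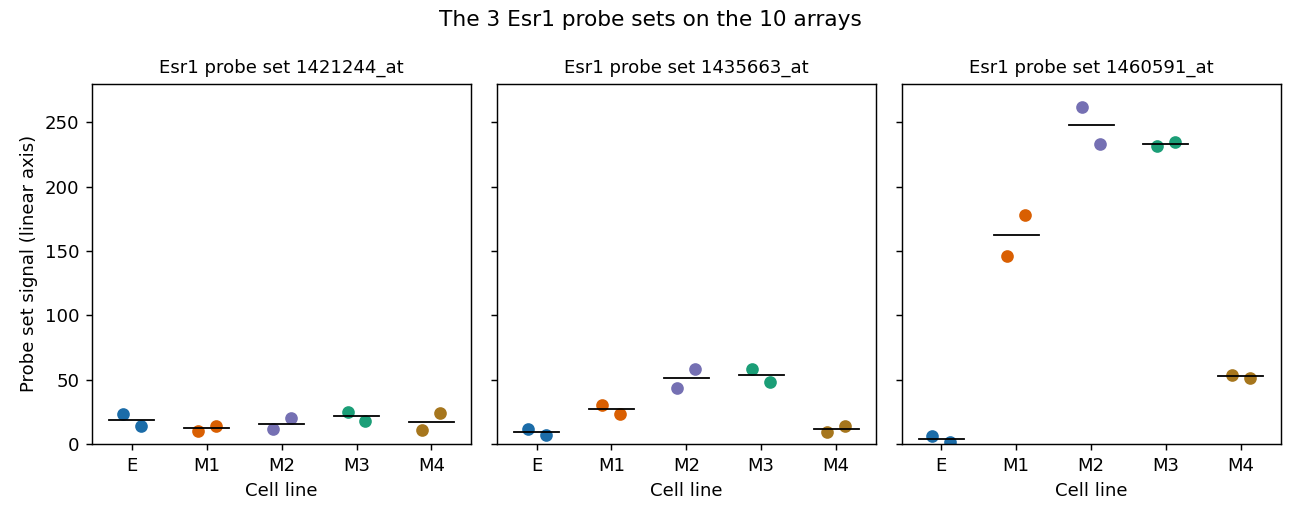
Signals of the 3 Esr1 probe sets on the 10 arrays by line (linear axis); points are arrays and bars the mean of 2 arrays. The probe set that represents the gene (right) has line means of 248 (M2), 233 (M3) and 52.7 (M4), the second (middle) reaches 58.7, and the third (left) at most 24.7.

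Pgr, itself a target of the oestrogen receptor in many tissues, was low everywhere. Its best probe set read 3.5 and 3.8 in E and 6.2 to 31.5 on the M arrays, so all M arrays were above E, but none reached the pseudocount of 32. The difference was 0.46 ± 0.18 (adjusted p = 0.0209), under the fold limit, and it was called with a pseudocount of 8 (1.06) and was 0 with values below 64 set to 64. The other 2 Pgr probe sets read at most 9.5 and 10.1 on any array and did not pass the filter. Thus Esr1 was called and Pgr was not, and whether the 2 changes differ was not tested.

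Counted by arrays, 5 of the 7 genes had all 8 M arrays below both E arrays, which held for 30.9% of all genes, and 2 had all 8 above, which held for 10.8%.

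Among the M lines, the F test with a range of at least 2-fold called Esr1 (range 1.72, adjusted p = 2.81e-12) and Gata3 (range 1.09, adjusted p = 5.43e-06), 2 of the 7 genes against 22.4% of all genes. M4 was the lowest M line for both. Of the 42 combinations of a gene and a pair of M lines, 4 were called, against 8.07% over all genes. Esr1 in M4 was below M1 by 1.19, M2 by 1.72 and M3 by 1.65, and Gata3 was above M4 by 1.09 in M1. The Gata3 difference lay at the fold limit and was 0.91 after quantile normalization, 0.995 with median centring and 0.83 with hybridization control scaling. The Esr1 difference between M1 and M4 was 0.95 after quantile normalization and 0.90 with the hybridization controls. With the mean of the 3 probe sets all 3 Esr1 differences from M4 were no longer called (0.49, 0.87 and 0.91), nor was Esr1 by the F test (range 0.91). Without M4, 0 of the 7 were called among the remaining lines; in that fit limma gave adjusted p of 0.0251 for Esr1 and 0.0813 for Gata3, with ranges of 0.53 and 0.46. For Elf5, Foxa1, Stat5a and Pgr a difference among the M lines did not pass the test (adjusted p of 0.329 to 0.995 in the F test).

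From each list of related genes the 4 called genes with the largest changes are named, and every other gene named from a list, called or not, was chosen after its values were seen. The lists were chosen with earlier results of these data known, and some genes, such as Tfap2c, passed the filter through E arrays alone. The shares called are therefore a description.

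Partners and targets of the oestrogen receptor did not move in 1 direction. Of 19 tested, 2 rose and 6 fell (42.1% called, against 21.8% of all genes), with a median of -0.31. Quantile normalization and hybridization control scaling gave 2 risers and 5 fallers, and median centring 3 and 6. Igfbp4, which encodes a binding protein of insulin-like growth factors, rose by 7.83 ± 0.10, from 13.7 and 1.3 in E to 7280 to 10223 on the M arrays. Cxcl12, a chemokine gene, rose by 2.15, with 3.4 and 10.2 in E and line means of 586 (M1), 136 (M2), 23.4 (M3) and 119 (M4), and its adjusted p was 0.29 on 5 line means. Myb (-4.78), a transcription factor gene, and Bcl2 (-2.84), which protects cells from apoptosis, fell most. Greb1, an oestrogen receptor target, was not called in the mean contrast (0.96). Its line means were 2.45 in E, 41.2 (M1), 92.6 (M2), 25.1 (M3) and 7.5 (M4), and it was called in M1 (1.09) and M2 (1.84). Tff1, another such target, differed by -0.02, with line means of 270 to 286 in all 5 lines. Of the 6 stromal fibroblast markers 5 were called higher in the mean of the M lines (Dcn 7.32, Pdgfra 4.37, Col1a2 4.15, Col1a1 4.08 and Lum 1.09), Lum in M4 alone among the single lines, and Thy1 differed by -0.06. Their part in the Esr1 values was not tested.

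The list of progesterone receptor targets and steroid receptors had 10 genes tested, and limma called 0 in the mean contrast. Of the 10, 5 had an unadjusted p under 0.05 and 4 an adjusted p under 0.05, all short of 2-fold. Over all 14840 genes, 9418 had an unadjusted limma p under 0.05 in that contrast. The 10 genes lay between -0.86 (Fkbp4, which encodes a cochaperone of steroid receptors) and 0.29 (Ihh, a hedgehog ligand gene). Single lines were called for 4 of the 10: Fkbp4 (-1.56) and Fkbp5 (-1.55) in M3, Id4 in M3 (-1.53) and M4 (-2.35), and Tsc22d3 in M1 (1.17). Over all genes 21.8% were called in the mean contrast. Nr3c1, the glucocorticoid receptor gene, differed by 0.06 ± 0.13, and Tnfsf11 and Calcr stayed under 12.5 on every array.

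Genes of the prolactin, Jak2 and Stat5 pathway split. Of 21 tested, 3 rose and 6 fell (42.9% called, against 21.8% of all genes), and after quantile normalization 4 rose and 3 fell. Socs2 (-3.14 ± 0.11) and Cish (-1.36 ± 0.14), both feedback inhibitors that Stat5 is known to induce, fell. Socs2 read 7398 and 7084 in E, 1220 to 1834 on the arrays of M1, M2 and M3, and 93.8 and 101 in M4; its adjusted p was 0.22 on 5 line means. Cish read 312 and 260 in E and 67.6 to 113 on the M arrays. Socs3 (2.70 ± 0.14), a feedback inhibitor of Stat3 signalling, rose, from 147 and 96.7 in E to 424 to 1491 on the M arrays. Socs1 (1.14 ± 0.15), of the same family, rose as well, and was called in M1, M2 and M4 but not in M3 (0.64). Ghr, the growth hormone receptor gene, rose by 2.57 ± 0.12, from 187 and 175 in E to 842 to 2261 on the M arrays. Stat3, the neighbour of Stat5a, fell by 1.81 (adjusted p of 0.0706 on 5 line means), and Jak2 differed by -0.22 and was not called. Prlr, the prolactin receptor gene, was not analysed here.

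Of 11 milk protein and secretory genes tested, 5 fell and 2 rose (63.6% called, against 21.8% of all genes). Their median was -0.20, beside -0.21 for all genes tested. Quantile normalization, median centring and hybridization control scaling each gave 4 fallers and 2 risers. Csn3, the kappa-casein gene, read 15600 and 15564 in E, 55.2 and 63.6 (M1), 32.3 and 29.3 (M2), 450.9 and 389.5 (M3) and 34.6 and 41.9 (M4), a change of -7.07 ± 0.13. M3 kept the highest signal among the M lines. Ltf, which encodes lactoferrin, fell by 6.33, and Csn1s1, an alpha casein gene, fell by 3.40 from 425 and 386 in E. The other caseins Csn1s2a, Csn1s2b and Csn2 and the lactose synthase subunit gene Lalba stayed under 20 on every array, E included, and did not pass the filter. Wap, the whey acidic protein gene, had line means of 24.45 in E and between 8.9 and 30.0 in M1 to M4 and was not called. E thus had signal for part of the milk genes only. Xdh, whose product coats milk fat droplets, rose by 2.75.

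The list of 22 other luminal transcription factors includes the Notch receptor genes Notch1 (-3.78) and Notch3 (-2.45) and the GATA cofactor gene Zfpm1. Of these genes 13 fell, 2 rose and 7 were not called (68.2% called, against 21.8% of all genes), with a median of -1.46. The same counts came out of quantile normalization, median centring and hybridization control scaling. Tfap2c (-6.95 ± 0.14), an AP-2 factor, fell most, from a mean of 4621 in E to between 3.8 and 9.9 in M1 to M4. Hey1 (-5.96), an effector of Notch, Grhl2 (-4.07), a guardian of epithelial junction genes, and Ehf (-3.997), an ETS factor of epithelia, followed. Those that rose were Tbx3 (2.34), a T-box factor gene, and Gata2 (1.84), a relative of Gata3. Gata2 had a mean of 16.5 in E and means between 110 and 168 in M1 to M4. Zfpm1, whose product binds GATA factors, fell by 2.56. Of 12 relatives of the 7 genes, 2 rose (16.7% called, against 21.8% of all genes) and 0 fell at the threshold. Without a fold limit, limma gave 4 lower and 3 higher at an unadjusted p under 0.05, beside 9418 of all 14840 genes in either direction. The risers were Ets1 (1.33) and Ets2 (1.31), relatives of Elf5, with adjusted p of 0.112 and 0.299 on 5 line means, and neither was called with the mean of probe sets (0.98 and 0.82). Without M3 Ets2 was at 0.90 and was not called. The other Elf genes, Elf1 (-0.68), Elf2 (-0.31) and Elf4 (0.65), were not called.

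**Figure D4:**
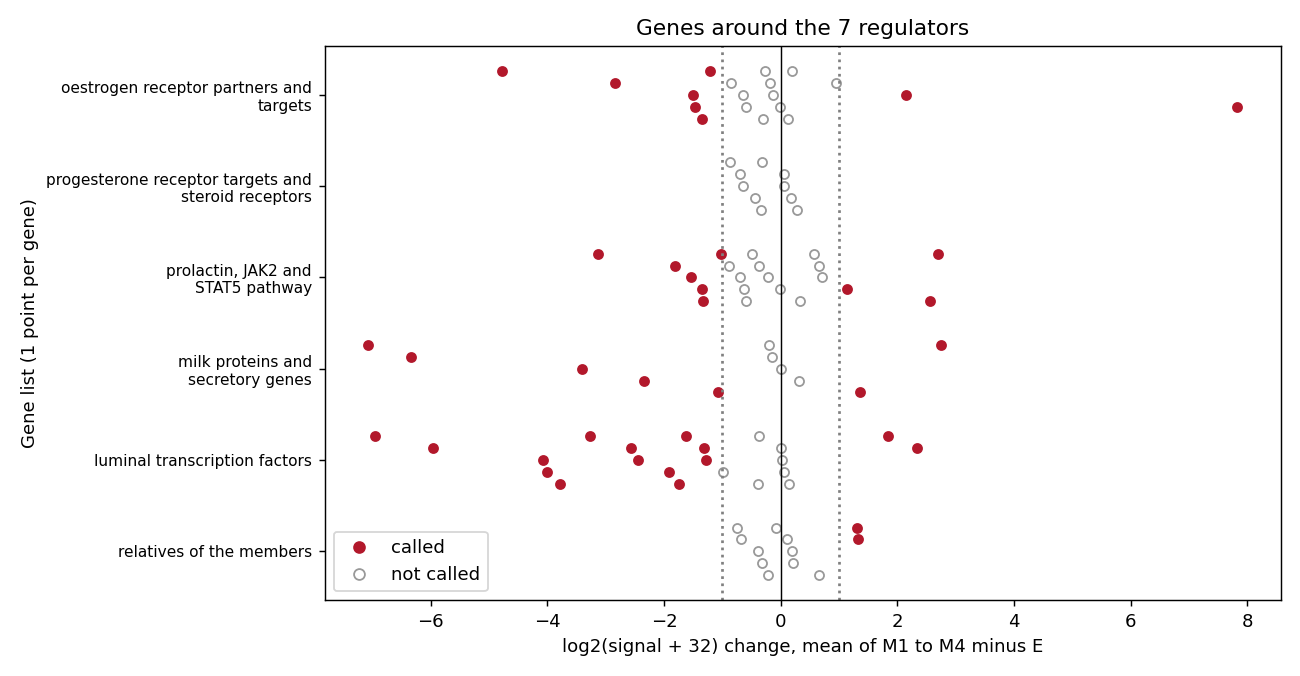
Change in log2(signal + 32) in the mean of M1 to M4 minus E for each gene of the 6 lists around the 7 regulators; 1 point is 1 gene, red points were called, open grey points were not, and dotted lines mark 2-fold. Genes of the luminal transcription factor list, Notch receptor genes included, lie mostly to the left (13 of 22 called lower), and the progesterone list has 0 calls.

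The genes whose pattern over the 10 arrays was most like that of each called regulator were found by Pearson's r of log2(signal + 32), among 6476 genes with at least a 2-fold range of line means. For Esr1 they were Adamtsl3 (r = 0.994), Gpr137b-ps (0.992) and Fnip1 (0.988), and 275 genes had r over 0.9. Adamtsl3 had line means of 8.25 in E, 102 (M1), 158 (M2), 147 (M3) and 36.3 (M4), the order that Esr1 showed. For Gata3 they were Cmas, Zfand6 and Limd1 (0.995 to 0.997), all lowest in M4. For Elf5 they were Cnmd, Col9a2 and Rassf10, for Foxa1 Serinc2, Stk26 and Gramd1c, and for Stat5a Lrch1, Dnmt3a and Gm11266, each with r of at least 0.993. Likeness to these 4 was common, with 1225 to 1521 genes over 0.9, since any gene high in E and low in the M lines gives it. The points share lines and array scale, and these values are a description.

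**Figure D5:**
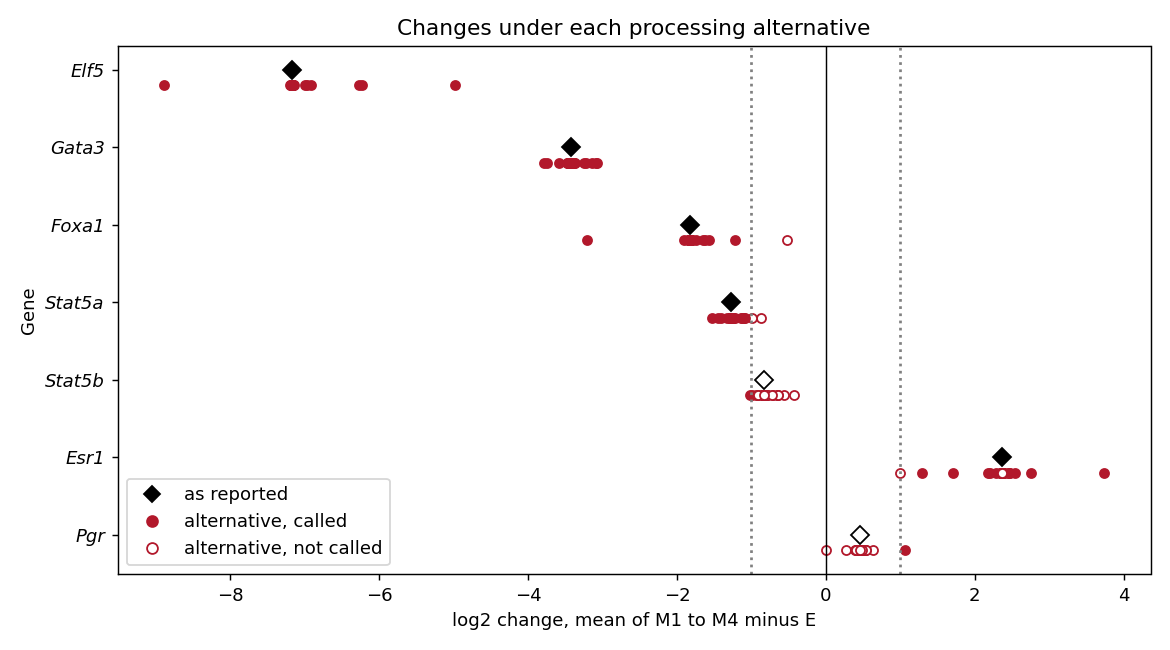
Log2 change of each regulator in the mean of M1 to M4 minus E as reported (diamonds) and under each processing alternative (circles), filled where called and open where not; dotted lines mark 2-fold. Elf5 (-8.89 to -4.99) and Gata3 (-3.79 to -3.08) were called under all 27 alternatives, and Stat5b (26 alternatives) and Pgr (27) under 1 each.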

How the data were processed

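Per the submitters' processing notes the arrays were read with GCOS 1.3; no source used here gives the signal algorithm or scaling. Each deposited value is a probe set's signal, an intensity on a linear scale. The 7 genes and the gene lists were chosen with earlier results of these data known. Probe sets with a single symbol in the platform annotation (34945 of 45101) were kept where at least 2 arrays had them above that array's 40th percentile, and the kept probe set with the highest mean signal stood for its gene (14840 genes). From the deposited intensity, log2(signal + 32) was fitted in limma 3.58.1 (R 4.3.3) with 1 mean per line and a trended prior, and p-values were adjusted by Benjamini-Hochberg over all genes. A fold change on this scale understates the change of dim genes. With 2 arrays per line the precision is limited by their number. The steps were tested on simulated data. For each list, the 4 genes called with the largest changes are named by rule, and all further names, markers included, were chosen after their values were seen. A check of the replicate numbers showed no pairing of the arrays, though it could not exclude one. The alternatives were other scalings (quantile, median, hybridization controls), pseudocounts, a floor, the filter, the choice of probe set, the replicate block, a fit without a trend, a fit to line means, and leaving out each array or M line. Promoters came from RefSeq (GRCm38.p6).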

Additional observations from a re-analysis of the deposited data

Results flagged for a closer look

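By limma's test of the difference itself over all genes, M4 differed in its change from E from M1, M2 and M3 for Esr1, and from M1 for Gata3. For Esr1 the difference in log2(signal + 32) was 1.193 for M1 minus M4 (adjusted p = 1.37e-07), 1.722 for M2 minus M4 (adjusted p = 2.29e-11) and 1.647 for M3 minus M4 (adjusted p = 3.59e-11), higher on all 6 arrays of those lines than on both M4 arrays. With the mean of the 3 Esr1 probe sets these were 0.49, 0.87 and 0.91 and were not called. For Gata3 it was 1.092 for M1 minus M4 (adjusted p = 1.06e-06), with both M1 arrays above both M4 arrays. This call was lost with quantile normalization (0.91), median centring (0.995), hybridization control scaling (0.83), a pseudocount of 64 (0.83) and a floor of 64 (0.86). Over all genes 8.07% of the combinations of a gene and a pair of M lines were called. The Gata3 differences of M2 (0.75) and M3 (0.63) from M4 were not called.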

How the results depend on the processing

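The count of regulators called among the M lines moved from 2 to 1 under quantile normalization, median centring, scaling to the hybridization controls, a pseudocount of 64, a floor of 64, the mean of probe sets and without line M1, and to 0 without line M4. The count of gene and pair combinations moved from 4 to 2 under quantile normalization, hybridization control scaling and a pseudocount of 64, and to 1 with the mean of probe sets. In the mean contrast 3237 of 14840 genes were called, and 1572 on line means; with each probe set tested, 5774 of 32978 probe sets were called. The Stat5b difference of M3 minus M4 (0.15, not called) reversed to -0.007 under hybridization control scaling. The causes were not tested. The deposited scaling gave 1089 genes higher and 2148 lower (33.6% higher), quantile normalization 1435 and 1305 (52.4%), median centring 1273 and 1665 (43.3%) and the hybridization controls 1333 and 1449 (47.9%), with the median gene at 0.04, -0.03 and 0.00 in place of -0.21. With the replicate block 3237 genes and 5 regulators were called in the mean contrast, and no call of a regulator changed. Correlations of same-numbered arrays' deviations over 10 line pairs lay between -0.0711 and 0.0576. They showed no pairing by number, but they would miss a shift shared by all genes. Without suffixed probe sets Stat5a and Stat5b had no value. Signals near or under the pseudocount, as for Pgr, for Foxa1 and Elf5 in the M lines and for Esr1 in E, set no firm size of change.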
